A study of Mus musculus with 36 samples.

Results

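Small RNA from the epididymal white adipose tissue (eWAT) of mice in the group named HFLF was compared with that of mice in the group named HF. The comparison takes the 6 HFLF and 6 HF libraries of this tissue, 12 of the 36 libraries of the series, and all 1966 mature microRNAs (miRNAs) of the count table, each from its line with the highest total. The series covered liver and eWAT in the groups LF, HF and HFLF, with 6 libraries per group and tissue, and its title names let-7 in a metabolic decline that passes from fathers to offspring. All mice were wild-type C57BL/6 males of the F1 generation, sampled at 24 weeks of age, after chow to week 6 and an assigned diet for the following 18 weeks. The HF samples carry the diet tag HFD and the HFLF samples the tag HFLFD, but the treatment text of every sample gives LFD, so it is not clear from the labels if a tag describes the animal's own diet or its father's. The groups are therefore called HF and HFLF throughout. Beyond their titles, nothing marks the replicates as separate animals, so a p-value here measures the spread between libraries, which may be technical. The samples are whole tissue, in which fewer cells of a type and less miRNA per cell cannot be told apart.

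A miRNA is a short RNA cut from the 5p or 3p arm of a hairpin precursor. Loaded into an Argonaute protein, it represses messenger RNAs that pair with its seed, the stretch of bases near its 5′ end, so miRNAs with the same seed share many targets. eWAT is a visceral fat depot that lies against the epididymis and testis. Besides adipocytes it holds endothelial cells, macrophages, lymphocytes and stromal cells, each with miRNAs of its own, and obesity is known to raise its macrophage content.

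The HF libraries held 9066683 to 14803991 counts and the HFLF libraries 13103448 to 17714156. In all, 1222 of the 1966 miRNAs had a count in the 12 libraries and 498 had one in every library. The 10 most abundant miRNAs took 62.5% to 65.6% of the counts of a library. Abundant miRNAs of the tissue's expected cell types were present in all 12 libraries, among them miR-143-3p of adipocytes and smooth muscle at 129169 to 243281 CPM (counts scaled to a common library total), endothelial miR-126a-3p at 13865 to 23726 CPM and stromal miR-199a-3p at 4496 to 6916 CPM. The hepatocyte miRNA miR-122-5p was also present, at 590.3 to 3089 CPM. Neural miR-9-5p was present in all 12 libraries, at 23.03 to 124.3 CPM, whereas neural miR-124-3p was at 0 to 1.44 CPM. Levels are CPM scaled by the trimmed mean of M values (TMM) over the 12 libraries. Some libraries stood apart. HF 6, and to a lesser degree HF 2, held high levels of miRNAs of the germ cell and epididymis list, HF 1 held high levels of muscle miRNAs. Values without these libraries are given beside many of the results they moved.

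Among the 24 miRNAs with the smallest p, 23 matched a RefSeq mature sequence (GRCm38.p6). They amount to 21 distinct sequences with 19 distinct seeds. Those that the results turn on are printed 5′ to 3′ with the seed, bases 2 to 8, in capitals. The first 3 lay higher in HFLF. The lower-lying ones follow, with miR-146a-5p beside miR-146b-5p for its shared seed, then members of the testis-type cluster of the X chromosome, and last let-7f-5p for the family of the title.
miR-126a-3p: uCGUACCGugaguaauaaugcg
miR-450b-3p: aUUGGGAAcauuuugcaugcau
miR-708-3p: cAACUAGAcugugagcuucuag
miR-130b-5p: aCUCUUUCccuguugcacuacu
miR-223-3p: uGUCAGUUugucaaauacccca
miR-142a-5p: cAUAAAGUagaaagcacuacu
miR-146b-5p: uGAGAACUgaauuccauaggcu
miR-146a-5p: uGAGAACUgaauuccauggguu
miR-221-3p: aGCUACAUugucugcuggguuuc
miR-222-3p: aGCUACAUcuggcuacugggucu
miR-465a-3p: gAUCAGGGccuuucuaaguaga
miR-465b-5p: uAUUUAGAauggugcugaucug
miR-465c-5p: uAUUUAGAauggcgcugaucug
let-7f-5p: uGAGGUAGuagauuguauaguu
The lines show that miR-221-3p and miR-222-3p share the seed GCUACAU, and that miR-146a-5p and miR-146b-5p share GAGAACU. The sequence printed for miR-465a-3p is also that of miR-465b-3p and miR-465c-3p, so reads of these 3 names cannot be told apart. miR-465b-5p and miR-465c-5p share the seed AUUUAGA. let-7a-5p, let-7c-5p and let-7g-5p carry the seed GAGGUAG printed for let-7f-5p.

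On GRCm38.p6, with host genes from GENCODE M21, miR-126a-3p lies at chr2:26591402-26591423 on the plus strand, in an exon of Egfl7, a gene of blood vessels. miR-130b-5p lies at chr16:17124109-17124130 on the minus strand in an intron of 2610318N02Rik, and miR-142a-5p at chr11:87756867-87756887 on the plus strand in an intron of the noncoding gene Mir142hg. For miR-146b-5p the position is chr19:46342790-46342811, plus strand, in an intron of Mfsd13a, and for miR-708-3p chr7:96249496-96249517, plus strand, in an intron of Tenm4. miR-223-3p is at chrX:96242884-96242905 on the plus strand, in an exon of the noncoding F630028O10Rik. miR-221-3p is at chrX:19146307-19146329, miR-222-3p at chrX:19146901-19146923 and miR-450b-3p at chrX:53048008-53048029, all on the minus strand with no annotated host on it.

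Differences between HFLF and HF were small for most miRNAs, and none passed the test. After a filter on low counts 575 miRNAs were tested, and edgeR's quasi-likelihood test with Benjamini-Hochberg adjustment called 0 of them (0%) at an adjusted p below 0.05, with 0.693 as the smallest adjusted p. An unadjusted edgeR p below 0.05 was found for 27 miRNAs (4.7%), of which 5 lay higher in HFLF (0.87%) and 22 lower (3.83%). DESeq2, run without that filter on 1222 miRNAs, and limma voom, run on 575, also called 0. An unadjusted p below 0.05 was found for 47 of the 1222 with DESeq2 and for 27 of the 575 with voom. The fitted log2 difference, HFLF minus HF, was above 0 for 263 miRNAs (45.7%) and below 0 for 312 (54.3%), with a median of -0.02. Scaling by library size alone gave 38.1% above 0 and upper quartile factors 50.3%. No miRNA had groups that did not overlap (0 of 575, 0%). The lower-lying miRNAs with the smallest p included miRNAs of the myeloid and obese-fat lists and, at low levels, an X-linked testis-type cluster. miR-130b-5p, miR-224-5p, miR-532-3p and miR-381-3p belonged to neither.

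**Figure D1:**
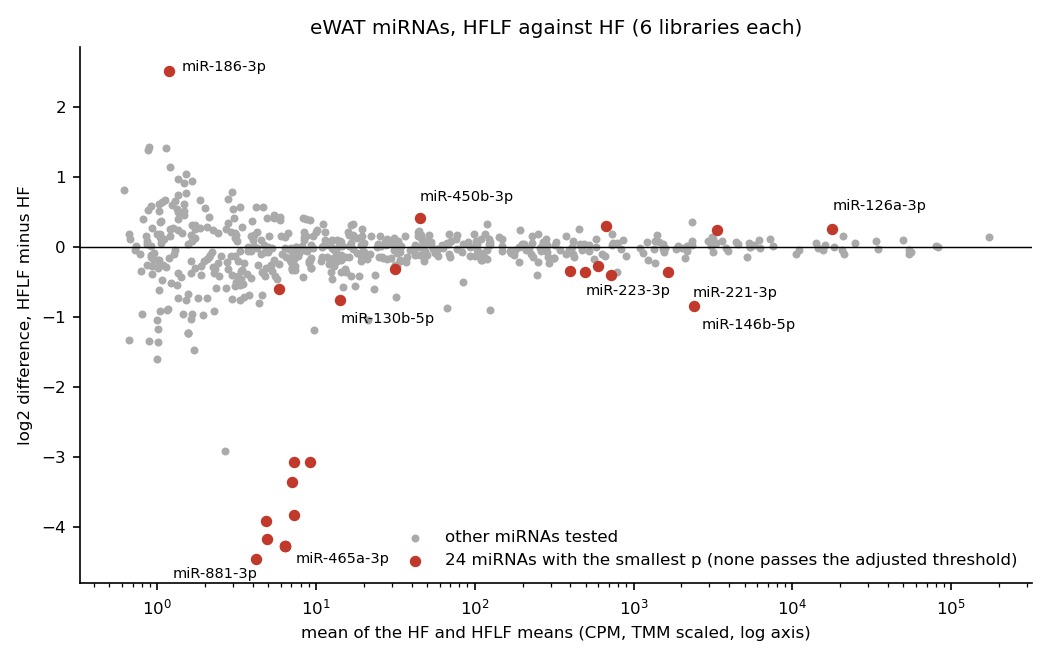
Each dot is 1 of the 575 miRNAs tested, placed by the mean of its HF and HFLF means (CPM, log axis) and by the log2 difference HFLF minus HF; red dots are the 24 with the smallest p, none past the adjusted threshold. Above 100 CPM the dots lie between -0.90 (miR-196a-5p) and 0.36 (miR-335-5p), with miR-146b-5p at -0.84, and below 10 CPM they reach from -4.45 (miR-881-3p) to 2.52 (miR-186-3p).

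The 12 libraries set a close limit on the abundant miRNAs and a loose one on the rare ones. Of 68 miRNAs with a mean of at least 1000 CPM, 63 had a 95% interval of the difference that lay within 1.5-fold in both directions, as had 84 of 91 between 100 and 1000 CPM, 95 of 154 between 10 and 100 CPM and 9 of 262 below 10 CPM. Over all 575 the count was 251 (43.7%), and 353 (61.4%) lay within 2-fold. The median coefficient of variation over 159 miRNAs of at least 100 CPM was 11.6% in HF and 12.2% in HFLF.

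The endothelial miRNA of the Egfl7 gene lay higher in HFLF, without passing the adjusted threshold. miR-126a-3p, which keeps vessel walls intact and supports signalling by vascular growth factors, had a lowest, median and highest level of 13865, 16266 and 18307 CPM in HF and of 16979, 19196 and 23726 CPM in HFLF. The highest library was HFLF 6, and 5 of the 6 HFLF libraries lay above the highest HF library, so the groups overlapped only through HFLF 4. The means were 16227 ± 1509 CPM in HF and 19548 ± 2232 CPM in HFLF (SD, n = 6 each), a log2 difference of 0.27 ± 0.09 (SE; edgeR adjusted p = 0.693). Without HFLF 6 it was 0.20. The other arm of the hairpin, miR-126a-5p, stood at 3073 ± 369 CPM in HF and 3668 ± 376 CPM in HFLF, with 4 HFLF libraries above every HF library and a log2 difference of 0.26 ± 0.09 (edgeR adjusted p = 0.693). Of the 5 miRNAs on the endothelial list 4 were tested, 3 of them above 0 (45.7% of all tested), and the list's median was 0.16 against -0.02 for all miRNAs tested, or 0.11 without HFLF 6. The members with an unadjusted p below 0.05 were these 2 arms, which come from 1 precursor. miR-532-5p, listed with them, gave -0.04 ± 0.13.

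Other miRNAs that lay higher came from separate loci. miR-450b-3p belongs to an X-linked cluster with miR-322, miR-503 and miR-542 that is known for growth and muscle differentiation. Its levels ran from 27.2 through a median of 38.7 to 48.7 CPM in HF and from 41.4 through 54.6 to 57.1 CPM in HFLF, with 4 HFLF libraries above the highest HF library. The log2 difference was 0.42 ± 0.14 (edgeR adjusted p = 0.693). In that cluster 11 of 12 tested members lay above 0, where 45.7% of all miRNAs tested did, and the median was 0.19, or 0.10 without HFLF 1. Its most abundant member, miR-322-3p, stood at 682 ± 94.6 CPM in HF and 782 ± 94.1 CPM in HFLF (0.20 ± 0.11), and the other arm, miR-322-5p, at 178 ± 26.4 and 211 ± 34.6 CPM (0.25 ± 0.12). Only miR-450b-3p had an unadjusted p below 0.05, and its partner arm miR-450b-5p gave 0.10 ± 0.27, with 0.02 to 0.26 when 1 library was left out. The 1 member below 0, singled out after its value was seen, was miR-503-3p (-0.17 ± 0.21).

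miR-708-3p, from an intron of Tenm4, ranged from 484 to 785 CPM in HF (median 579) and from 622 to 865 CPM in HFLF (median 764), and 3 HFLF libraries exceeded the highest HF library. Its log2 difference was 0.30 ± 0.12 (edgeR adjusted p = 0.705), close to the 0.26 ± 0.14 of the other arm, miR-708-5p. The rare arm miR-186-3p stood at 0.36 ± 0.376 CPM in HF, with 2 libraries at 0, and at 2.01 ± 1.6 CPM in HFLF (2.52 ± 0.87, edgeR adjusted p = 0.693). The abundant arm of that hairpin, miR-186-5p, gave 0.12 ± 0.08 at 559 ± 54.0 and 605 ± 32.5 CPM.

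The miRNA with the smallest p of all was miR-130b-5p, the rarely studied arm of a hairpin whose 3p arm is known to restrain Pparg, the master regulator of fat cell differentiation. It measured 13.0 to 23.3 CPM in HF, with a median of 17.6, and 6.86 to 13.3 CPM in HFLF, with a median of 10.8. All 6 HFLF libraries lay below the HF median and 4 lay below the lowest HF library. The log2 difference was -0.75 ± 0.21 (edgeR adjusted p = 0.693), and leaving out any 1 library kept it between -0.85 and -0.64. The 3p arm was scarcer still, at 2.98 ± 1.65 CPM in HF and 2.57 ± 1.27 CPM in HFLF, and its difference of -0.21 ± 0.45 cannot be told from 0.

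Most myeloid miRNAs tested lay lower in HFLF, though none passed the adjusted threshold. miR-223-3p, the miRNA of granulocytes and macrophages that damps inflammatory signalling, had a lowest, median and highest level of 593, 656 and 717 CPM in HF and 474, 521 and 659 CPM in HFLF. All but 1 of the 6 HFLF libraries lay below every HF library, and HFLF 1 lay just above the HF median. The means were 651 ± 43.2 and 544 ± 67.2 CPM, a log2 difference of -0.26 ± 0.09 (edgeR adjusted p = 0.693). miR-142a-5p, made in all blood cell lineages, measured 402 to 695 CPM in HF and 339 to 499.8 CPM in HFLF, with all HFLF libraries below the HF median (-0.35 ± 0.13, edgeR adjusted p = 0.693). Of the 9 miRNAs on the macrophage and granulocyte list 8 were tested, and 7 of them lay below 0, where 54.3% of all miRNAs tested did. An unadjusted p below 0.05 was found for 2, the pair just given, against 4.7% of all miRNAs tested. The 1 member above 0, named after its value was seen, was miR-511-3p (0.17), and its partner arm miR-511-5p gave -0.07. The list's median was -0.16 against -0.02 for all miRNAs tested, and -0.05 without HF 5. The less abundant arms gave -0.07 ± 0.17 for miR-223-5p and -0.20 ± 0.20 for miR-142a-3p. miR-155-5p, which drives macrophage activation, gave -0.21 ± 0.15. Without HF 5 both miR-142a-3p and miR-155-5p were at -0.08. Summed over the list, the level ran from 1989.7 to 2707 CPM in HF and from 1706 to 2216 CPM in HFLF.

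The seed GAGAACU was carried mostly by miR-146b-5p, which limits signalling from Toll-like receptors and is known to be raised in obese adipose tissue. Its levels ran from 1601 in HF 1 through a median of 3031 to 4592 CPM in HF 4, and from 812 in HFLF 6 through 1710.0 to 2455 CPM in HFLF 5. All HFLF libraries lay below the HF median, 3 of them below the lowest HF library, and HF 1 lay among the HFLF values. The means were 3062 ± 958 and 1709.8 ± 601 CPM, the largest difference among miRNAs above 1000 CPM at -0.84 ± 0.29 on the log2 scale (edgeR adjusted p = 0.693). Leaving out any 1 library gave -0.97 to -0.69. miR-146a-5p, with the same seed and the same known targets, stood at 686 ± 152 CPM in HF and 633 ± 85.7 CPM in HFLF (-0.12 ± 0.13, or -0.02 without HF 5). Added together, the 2 miRNAs of this seed measured 3747 ± 897 CPM in HF and 2343 ± 671 CPM in HFLF. miR-146b-5p made up 69.1% to 90.1% of that sum in HF and 59.8% to 78.0% in HFLF.

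A related set was the list of miRNAs known to be raised in obese adipose tissue, to which miR-146b, miR-223-3p and miR-142a-5p also belong. Of its 12 members, all tested, 9 lay below 0, where 54.3% of all miRNAs tested did, and the median was -0.35. An unadjusted p below 0.05 was found for 6, all 6 lower in HFLF, against 4.7% of all miRNAs tested. Of the 6, 2 are the arms of the miR-146b hairpin, and without HF 2 the count was 3. miR-221-3p and miR-222-3p, a pair cut from 1 transcript that represses the cell cycle inhibitor p27 and the receptor Kit, were part of it. miR-221-3p measured 1321 to 2658 CPM in HF and 1064 to 1723 CPM in HFLF (-0.35 ± 0.15, edgeR adjusted p = 0.926), and miR-222-3p 604 to 1254 CPM and 425 to 809.7 CPM (-0.40 ± 0.17, edgeR adjusted p = 0.926). HF 2 was the highest library for both. Without it the differences were -0.20 and -0.21, and neither had an unadjusted p below 0.05. miR-342-3p was also highest in HF 2, at 466 CPM, and went from -0.39 ± 0.18 to -0.16 without that library. The list's median was -0.19 without HF 2 and -0.12 without both HF 2 and HF 6. The 3 members above 0 were miR-335-5p, an intronic miRNA of the imprinted gene Mest (0.36 ± 0.35, or 0.21 without HF 5), and, named after their values were seen, miR-34a-5p (0.12 ± 0.13) and miR-132-3p (0.00 ± 0.15). miRNAs known to be lowered in obese fat showed no matching shift: 5 of 9 tested lay above 0, where 45.7% of all miRNAs tested did. Their median was 0.01, or -0.02 when scaled by library size alone. An unadjusted edgeR p below 0.05 was found for 1 of the 9, miR-200b-5p (-0.91), against 4.7% of all miRNAs tested.

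**Figure D2:**
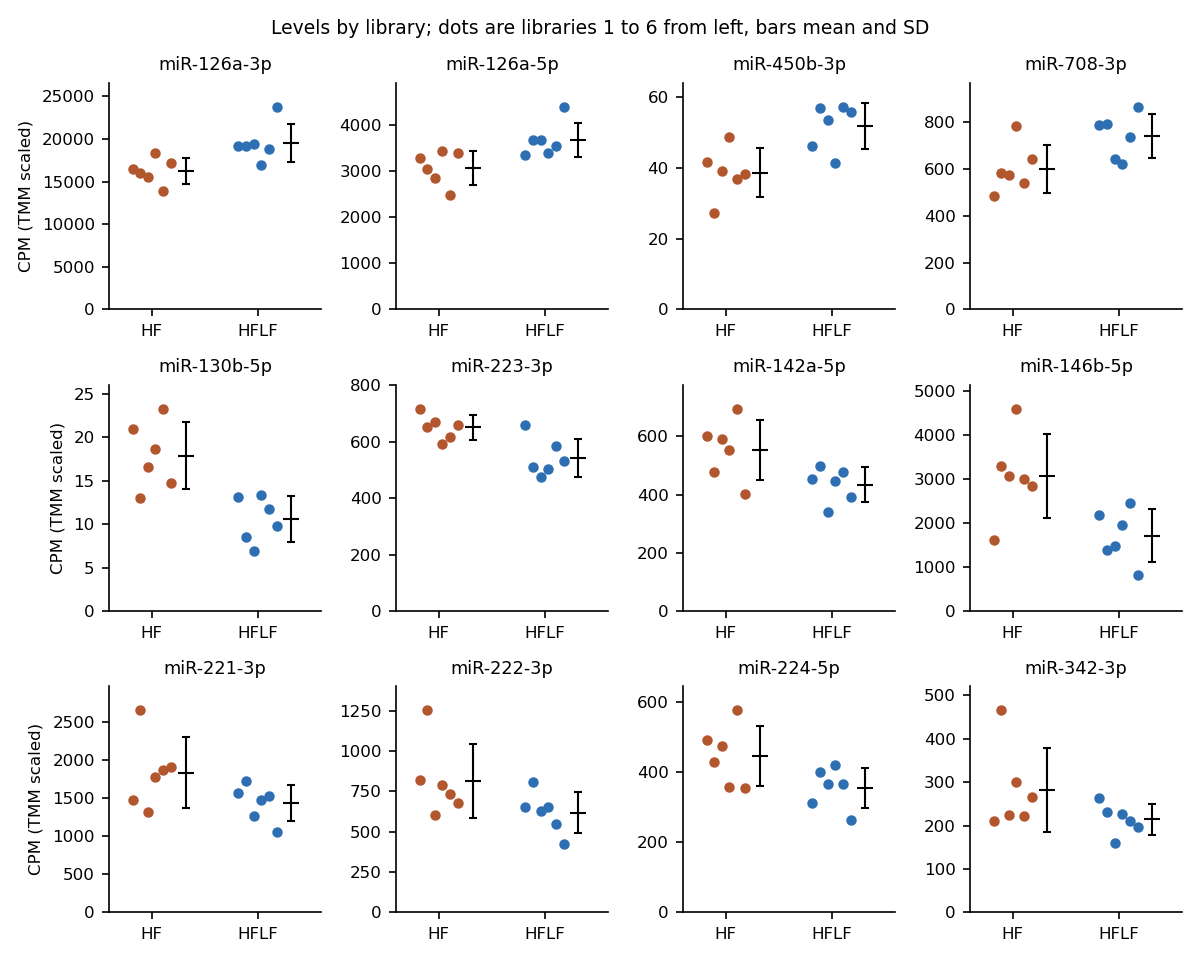
Levels of 12 miRNAs in CPM (TMM scaled, linear axes from 0) in HF (brown) and HFLF (blue), with dots for libraries 1 to 6 from left and bars for mean and SD. The top row lay higher in HFLF and the lower rows lower, and in every panel the groups overlap; HF 2 is the highest dot for miR-221-3p, miR-222-3p and miR-342-3p.

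miR-224-5p, from an intron of Gabre on the X chromosome, measured 355 to 576 CPM in HF and 264 to 420.4 CPM in HFLF (-0.33 ± 0.13, edgeR adjusted p = 0.844). All HFLF libraries lay below the HF median of 451 CPM, and 2 lay below the lowest HF library. miR-532-3p, from an intron of Clcn5, stood at 34.7 ± 4.18 CPM in HF and 27.9 ± 2.44 CPM in HFLF (-0.31 ± 0.13, edgeR adjusted p = 0.915), whereas the abundant arm miR-532-5p gave -0.04 ± 0.13. miR-381-3p, of the imprinted Dlk1-Dio3 cluster, stood at 7.0 ± 1.51 and 4.63 ± 1.08 CPM (-0.60 ± 0.26, edgeR adjusted p = 0.915). Of 90 listed members of that cluster 59 were tested, 44 of them below 0, where 54.3% of all miRNAs tested were, with a median of -0.12. An unadjusted p below 0.05 was found for 1 of the 59, against 4.7% of all miRNAs tested. The median was -0.03 without HF 2 and also without HF 5. Among its more abundant members, miR-434-3p and miR-127-3p gave -0.22 ± 0.12 and -0.14 ± 0.11, or -0.14 without HFLF 6 and -0.07 without HF 2. The placental Sfmbt2 cluster had 15 of 21 tested members below 0, where 54.3% of all miRNAs tested were. Its median was -0.17, or -0.05 without HF 2 and -0.04 without HF 2 and HF 6. miR-467a-5p and miR-467b-5p had the same total count and difference, as had miR-467a-3p and miR-467d-3p, and miR-669a-5p and miR-669p-5p. All of these lay below 0, so the 21 are fewer than 21 independent measurements.

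The bulk of the counts did not differ beyond the spread between libraries. miR-143-3p, which promotes fat cell differentiation and marks smooth muscle, was the most abundant, at 163365 ± 41482 CPM in HF and 181452 ± 22331 CPM in HFLF (0.15 ± 0.14). HF 1 was far above the other HF libraries at 243281 CPM. Without it the difference was 0.32 ± 0.10 (edgeR adjusted p = 0.673), more than 1.5 times as large, and without HFLF 6, the highest of its group, it was 0.08. The other 9 of the 10 most abundant miRNAs had differences between -0.09 and 0.10: miR-26a-5p 0.03 ± 0.08, the fibrosis-linked miR-21a-5p -0.04 ± 0.09, miR-30a-5p 0.10 ± 0.09 (0.02 without HFLF 6), miR-30d-5p 0.06 ± 0.07, miR-10b-5p of the Hox clusters 0.09 ± 0.10, and 4 let-7 members. Those of let-7f-5p and miR-26a-5p turned to -0.03 and -0.01 when scaled by library size alone, and that of let-7g-5p to 0.01 with upper quartile factors.

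let-7 restrains growth and insulin signalling by repressing Lin28, Hmga2 and parts of the insulin pathway. let-7f-5p measured 74592 to 89467 CPM in HF and 72980 to 95575 CPM in HFLF (0.01 ± 0.08), let-7c-5p 50768 to 71343 and 46748 to 62726 CPM (-0.07 ± 0.09), let-7a-5p 50592 to 64611 and 44380 to 61167 CPM (-0.09 ± 0.09), and let-7g-5p 31790 to 38538 and 31113 to 38384 CPM (-0.03 ± 0.08). The libraries of both groups were interleaved throughout. Summed over the 9 5p arms, the family stood at 254825, 282498 and 322205 CPM (lowest, median, highest) in HF and at 240899, 269749 and 308454 CPM in HFLF. Of the 9 arms 8 lay below 0, where 54.3% of all miRNAs tested did. None had an unadjusted p below 0.05, against 4.7% of all miRNAs tested. The median was -0.07, or -0.01 without HFLF 1 and 0.00 without HF 2 and HF 6. The 95% interval of let-7a-5p ran from -0.28 to 0.10, and that of let-7f-5p from -0.16 to 0.18. Of the 3p arms 11 were tested, 7 of them below 0, with a median of -0.15, or -0.06 without HF 6. The most abundant, let-7d-3p, stood at 1312 ± 199 CPM in HF and 1159.5 ± 106 CPM in HFLF (-0.18 ± 0.10).

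miRNAs with a known part in fat cells lay near 0 as groups. Over all miRNAs tested, 45.7% lay above 0 and 54.3% below, and 4.7% had an unadjusted p below 0.05. Of 13 that promote fat cell differentiation 10 lay above 0, with a median of 0.06, or 0.02 without HFLF 6, and none at an unadjusted p below 0.05. Among them miR-378a-3p, a regulator of lipid metabolism, measured 2861 to 4249 CPM in HF and 2732 to 4588 CPM in HFLF (0.10 ± 0.12). Of 10 that restrain differentiation 5 lay above 0, with a median of -0.08, or 0.05 without HF 1. The 2 with an unadjusted p below 0.05 were miR-221-3p and miR-222-3p, and miR-27a-3p, which represses Pparg, gave 0.07 ± 0.07. Brown and beige fat miRNAs had 4 of 10 above 0 and a median of -0.03, or 0.10 without HF 1. The miR-29 family, which represses collagens, had 7 of 7 tested arms above 0 but a median of only 0.12 and no unadjusted p below 0.05; its main arm miR-29a-3p stood at 6970 ± 629 CPM in HF and 7555 ± 995 CPM in HFLF (0.12 ± 0.09). The list medians of the miR-30 family, the erythroid, stromal and hepatocyte lists were between 0.00 and 0.02 and turned to between -0.02 and -0.01 when scaled by library size alone. Each of these 4 medians also changed sign when some single library was left out. That of miR-15, miR-16, miR-195 and miR-497 was -0.01 and turned to 0.01 and 0.03 with RLE and upper quartile factors. For lymphocyte miRNAs 5 of 7 lay below 0 (median -0.13, or -0.02 without HF 5), and miR-150-5p, which marks mature lymphocytes, gave -0.07 ± 0.12. The miR-17-92 and miR-106b-25 clusters had 9 of 14 tested members below 0, with a median of -0.04 that turned to 0.01 without HFLF 1. The miR-10 and miR-196 miRNAs of the Hox clusters had 4 of 7 above 0, with a median of 0.04 that turned to -0.01 without HF 6 and was 0.12 without HF 1.

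**Figure D3:**
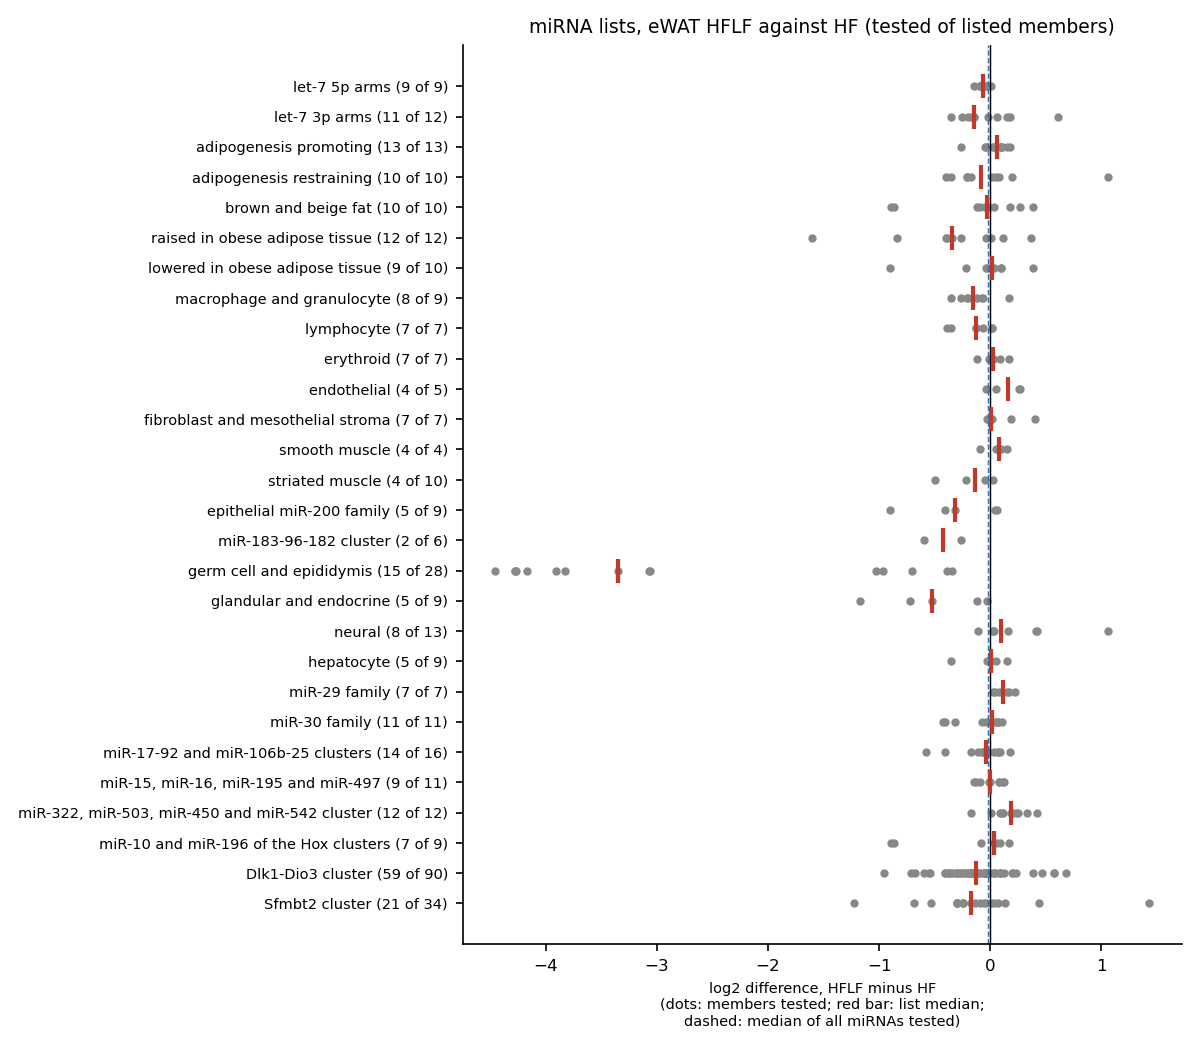
Log2 differences HFLF minus HF (linear axis) of the tested members of 28 miRNA lists (grey dots), with list medians (red bars) and the median of all 575 miRNAs tested (dashed, -0.02). Medians outside the germ cell and epididymis list (-3.35) lie between -0.52 and 0.19.

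The largest fitted differences belonged to an X-linked cluster known from testis and epididymis, and their size rested largely on 2 HF libraries. Among the 24 miRNAs with the smallest p were 10 of this cluster, all from a stretch of 62325 bases at chrX:66776760-66839084, with fitted log2 differences from -4.45 (miR-881-3p) to -3.06 (miR-465b-5p). miR-465a-3p measured 1.80, 16.03, 0.502, 0, 3.42 and 51.6 CPM in HF 1 to HF 6, and 0 to 1.85 CPM in HFLF. HF 6 and HF 2 were thus far above the rest, and HF 4, at 0, lay at the bottom of the HFLF range. The difference of -4.27 ± 1.48 (edgeR adjusted p = 0.693) was -2.79 without HF 6 and -1.15 ± 1.14 without both (edgeR adjusted p = 0.996). miR-871-3p had the same order, with 50.9 CPM in HF 6, 18.4 CPM in HF 2 and 0.549 to 4.41 CPM in the other HF libraries, against 0 to 3.51 CPM in HFLF (-3.35 ± 1.37, or -0.64 without both). Without HF 6 and HF 2 all 10 still lay below 0, with a median of -1.15 against -4.04 with all libraries. Their differences then ran from -2.61 ± 1.24 (miR-881-3p) to -0.61 ± 1.39 (miR-741-3p), and 0 of the 10 had an unadjusted edgeR p below 0.05. Because miR-465a-3p, miR-465b-3p and miR-465c-3p share 1 sequence, the 10 are fewer than 10 independent measurements.

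The whole germ cell and epididymis list followed the same libraries. Of its 28 miRNAs 27 were detected and 15 tested, 0 of them above 0, with 10 at an unadjusted p below 0.05 and a median of -3.35. Over all miRNAs tested, 45.7% lay above 0 and 4.7% had such a p. The 15 are those that passed the filter on low counts and do not stand for the whole list. Without HF 6 the median was -2.08 with 5 such p, and without HF 6 and HF 2 it was -0.94 with 3 of 15 above 0 and none below an unadjusted p of 0.05. The summed level was 70.6, 249, 44.5, 53.9, 101 and 786 CPM in HF 1 to HF 6 and 29.99 to 88.2 CPM in HFLF. HF 6 was the highest of the 12 libraries for 25 of the 27 detected members. miR-34c-5p, abundant in germ cells and ciliated cells of the male tract, reached 113 CPM in HF 6 against 14.4 to 42.3 CPM in the other HF libraries, and its difference turned from -0.71 ± 0.56 to 0.29 without HF 6 and HF 2. miR-375-3p of glands stood at 41.4 CPM in HF 6 against 4.47 to 15.3 CPM in the other HF libraries. How much tissue of the male tract these libraries held, and its part in other differences, was not tested.

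Of the 23 leading miRNAs with a sequence 16 are X-linked (69.6%), against 58 of 486 matched miRNAs tested (11.9%). Of the 16, 10 form the cluster just described. Of the 48 X-linked miRNAs outside the germ cell list 23 lay above 0 and 25 below, with a median of -0.05, and 6 had an unadjusted p below 0.05, 1 higher and 5 lower. The 428 matched miRNAs of other chromosomes had a median of -0.01, and 10 of the 428 had such a p, against 4.7% of all miRNAs tested. Members above and below 0 were thus near equal in number on the X chromosome outside the germ cell list. Small p were more frequent there than on other chromosomes, and 5 of those 6 lay lower. Without HF 2 and HF 6, 7 of 55 had such a p, 4 higher and 3 lower, against 15 of 460 on other chromosomes.

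Muscle miRNAs varied widely within both groups. miR-1a-3p, of skeletal and heart muscle, measured 606 to 3291 CPM in HF, with HF 1 the highest, and 418 to 2056 CPM in HFLF. Its difference of -0.22 ± 0.52 turned to 0.22 without HF 1, and that of miR-133a-3p, -0.50 ± 0.57, to 0.04. Of the 10 striated muscle miRNAs 4 were tested, and miR-1a-1-5p, miR-1a-2-5p, miR-208a-3p and miR-208b-3p had no count in any of the 12 libraries. The summed level of the list was 677 to 3554.5 CPM in HF and 469.8 to 2203 CPM in HFLF. The smooth muscle list, which miR-143-3p dominates, summed to 248507 CPM in HF 1, to 133103 to 164689 CPM in the other HF libraries and to 161572 to 223210 CPM in HFLF. Neural miRNAs had 7 of 8 tested members above 0, against 45.7% of all miRNAs tested, and a median of 0.10. Their sum was highest in HF 1, and the median without HF 1 was 0.42.

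**Figure D4:**
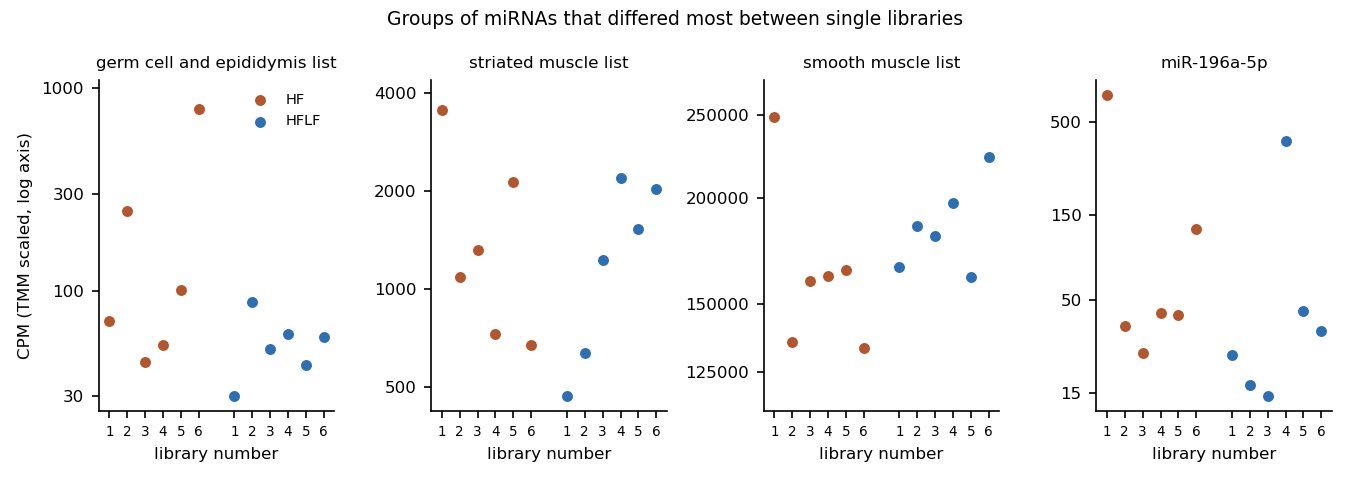
Summed levels of 3 miRNA lists and the level of miR-196a-5p (CPM, TMM scaled, log axes) in the 6 HF and 6 HFLF libraries by number. HF 6 and HF 2 lead the germ cell and epididymis list at 786 and 249 CPM, HF 1 leads both muscle lists, at 3554.5 and 248507 CPM, and miR-196a-5p is highest in HF 1 (705 CPM) and HFLF 4 (389.8 CPM).

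Epithelial miRNAs were low in both groups, as were the glandular ones other than miR-7a-5p. The miR-200 family, which keeps epithelial cells from turning mesenchymal, summed to 88.3 to 152 CPM in HF and 59.3 to 167 CPM in HFLF. Of its 9 members 5 were tested, 2 of them above 0, against 45.7% of all miRNAs tested. Those were the 2 most abundant, miR-200b-3p (0.06) and miR-200a-3p (0.05). miR-200c-3p, tested at 21.2 ± 8.08 and 16.1 ± 6.5 CPM, gave -0.40 ± 0.29, or -0.25 without HF 1. miR-429-3p gave -0.32 and miR-200b-5p -0.91. Only miR-200b-5p had an unadjusted edgeR p below 0.05, against 4.7% of all miRNAs tested. miR-182-5p, of the miR-183-96-182 cluster of sensory and epithelial cells, stood at 28.0 ± 13.6 and 18.5 ± 4.09 CPM (-0.60 ± 0.27, edgeR adjusted p = 0.933). HF 1 was its highest library, and the difference was -0.32 without it. The glandular and endocrine list had 5 of 9 tested, none above 0, against 45.7% of all miRNAs tested. Its median of -0.52 was -0.03 without HF 1 and -0.07 without HF 2 and HF 6. The list summed to 325 to 399 CPM in HF and 310 to 422 CPM in HFLF. Most of its counts came from miR-7a-5p, which gave -0.03.

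The balance of the 2 arms of a hairpin is a ratio within each library, so scaling factors between libraries do not enter it. Because 1 count was added to each arm, the ratio of a rare arm still depends on the depth of the library. Among 181 hairpins limma called 0 differences in the log2 ratio of 5p to 3p counts (0%), with 0.689 as the smallest adjusted p and 4 hairpins (2.21%) at an unadjusted p below 0.05. miR-200b led, with a ratio of -4.82 to -3.86 on the log2 scale in HF and -6.22 to -4.84 in HFLF, so that its 5p arm was rarer relative to 3p in HFLF (-0.92 ± 0.26, limma adjusted p = 0.689). Every HFLF library lay below every HF library, though HFLF 2, the highest of its group, and HF 5, the lowest of the other, were close. It was the only hairpin of the 181 whose groups did not overlap (0.552%), and its 5p arm rests on few counts, 347 over the 12 libraries. The ratio of miR-335, the Mest hairpin, ran from 0.42 to 2.10 in HF and from 1.79 to 2.09 in HFLF (0.69 ± 0.23, limma adjusted p = 0.768). HF 5 was the lowest of the 12 libraries for it. The remaining leading hairpins were miR-186 (-2.39 ± 0.76), miR-296 (-0.62 ± 0.26) and let-7f with its let-7f-1 3p arm (0.38 ± 0.18, limma adjusted p = 0.887). The 3p arm of miR-186 had only 211 counts over the 12 libraries. Its ratio difference ran from -2.78 to -1.38 over the alternatives that kept all 12 libraries.

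Whether the contrast in eWAT differed from the same contrast in liver was tested as an interaction over the 24 HF and HFLF libraries of both tissues. edgeR called 1 of 633 miRNAs (0.158%), miR-409-5p of the Dlk1-Dio3 cluster, at an adjusted p of 0.0453, and 58 (9.16%) had an unadjusted p below 0.05. The call rested on liver. In eWAT miR-409-5p measured 5.0 to 14.7 CPM in HF and 3.98 to 9.28 CPM in HFLF, with overlapping groups. In liver it had no count in any of the 6 HF libraries and 42 counts in 4 of the 6 HFLF libraries. In pooled CPM the HFLF level was 16.7 times a floor of 3 counts over the liver HF group. This ratio leaves out the spread between libraries and is no lower bound on the fold. Among the liver HF libraries, HF 6 detected only 368 miRNAs, against 540 to 628 in the others. miR-409-5p was still called without liver HF 6. It was not called with RLE factors (adjusted p = 0.0639), with the replicate block (0.296), or in 19 of 24 fits without 1 library. DESeq2 called it together with miR-376c-3p of the same cluster, which measured 14.8 ± 3.50 CPM in eWAT HF and 13.2 ± 3.32 CPM in eWAT HFLF.

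Set beside the LF group, with all 18 eWAT libraries scaled together, the leading miRNAs showed no single pattern. In the order LF, HF, HFLF, miR-130b-5p stood at 21.0 ± 6.48, 17.9 ± 3.73 and 10.7 ± 2.67 CPM, and miR-126a-3p at 14766 ± 4813, 16245 ± 1635 and 19709 ± 2366 CPM. miR-450b-3p was at 37.5 ± 8.94, 38.7 ± 7.10 and 52.2 ± 6.22 CPM. For miR-146b-5p, HF was the group that lay highest, at 3062 ± 962 CPM against 2203 ± 432 in LF and 1720.0 ± 596 in HFLF. miR-223-3p measured 646 ± 125, 651 ± 47.7 and 548 ± 64.8 CPM in the same order. The LF values take in every LF library of eWAT, including some that stood apart in an earlier account of this series. These levels are a description, and no test with LF is given for them.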

How the data were processed

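Small RNA libraries (NEXTFLEX Small RNA-seq kit, per the labels' protocols) were compared as 6 HFLF against 6 HF libraries of eWAT. The deposited values tested are raw read counts per miRNA and precursor, made by the authors with cutadapt, Bowtie and GRCm38.p6, per the submitters' processing notes, which give these names without versions. The authors also deposited tables of CPM, not tested here, and of log2 values for 180 miRNAs, used as an alternative. Column codes were read as tissue and group abbreviations (W for eWAT, H for HF, R for HFLF). Of 2118 lines for 1966 mature miRNAs, 87 miRNAs had several, and the line with the highest total was kept. Lines left out held 23.2% to 26.7% of a library's counts. No pair of libraries agreed within counting noise (lowest chi-square per degree of freedom 82.1).

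Counts were fitted with edgeR 4.0.16 in R 4.3.3 (TMM factors, filterByExpr with a minimum count of 10 and total of 15, robust quasi-likelihood F test, Benjamini-Hochberg adjusted p below 0.05), on the 12 libraries alone. SE is the log2 difference divided by the root of F. Arm ratios, log2 of 5p over 3p counts with 1 added to each, were tested with limma 3.58.1, and the tissue difference as an edgeR interaction over 24 libraries. The steps were tested on simulated data. Alternatives were DESeq2 1.42.0, voom, other factors, no filter, all 18 eWAT libraries, summed lines, the authors' log2 values, a replicate block and leaving out libraries. Replicate numbers did not pair the libraries.

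Named are the 24 miRNAs with the smallest p, the 10 most abundant, up to 4 abundant tested members of each of 28 lists, partner arms, and the leading arm ratios and tissue differences. Other names were chosen after their values were seen, among them miR-196a-5p and the undetected muscle arms. The members and lists were chosen with earlier results of these data known. Sequences are RefSeq's (GRCm38.p6) and matched 486 of the 575 miRNAs tested. Without unique molecular identifiers taken into account, counts need not be independent molecules.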

Additional observations from a re-analysis of the deposited data

Results flagged for a closer look

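A library was singled out where its distance from the nearest of the other 5 of its group, as a share of the group's range, passed Dixon's critical value of 0.625. This held for 33 of 190 groups of 6 values, where chance gives about 1 in 20. Most lay in a few libraries, and several are members of 1 cluster or arms of 1 hairpin.

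HF 6 stood above the other HF libraries for the testis-type X-linked miRNAs: miR-881-3p at 30.8 CPM, miR-465c-3p at 51.3, miR-743a-3p at 37.2, miR-465a-3p and miR-465b-3p, which share a sequence, at 51.6 each, miR-470-5p at 56.2, miR-465b-5p at 48.2, miR-465c-5p at 65.4 and miR-871-3p at 50.9 CPM. It also led for miR-34c-5p at 113 CPM, miR-34b-3p at 86.5, miR-375-3p at 41.4 and the summed germ cell and epididymis list at 786 CPM.

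HF 2 was high for miR-222-3p at 1254 CPM and miR-342-3p at 466, and low for miR-30a-5p at 40866 CPM, the miR-30 family at 81707 and the glandular list at 325 CPM. HF 1 was high for miR-143-3p at 243281 CPM, miR-196a-5p at 705, the smooth muscle list at 248507 and the neural list at 1203 CPM. HF 3 was low for miR-669c-5p at 17.5 CPM and the Sfmbt2 cluster at 131 CPM.

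HFLF 6 was high for miR-126a-3p at 23726 CPM, miR-126a-5p at 4381, miR-30a-5p at 64662.5 and the miR-30 family at 120650.0 CPM, and low for the Dlk1-Dio3 cluster at 1813 CPM. HFLF 5 was high for miR-146a-5p at 799 CPM, HFLF 2 for miR-34c-5p at 50.4 and miR-222-5p at 14.97, and HFLF 4 for miR-196a-5p at 389.8 CPM.

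The contrast in eWAT differed from that in liver for miR-409-5p, with an interaction of -6.83 on the log2 scale (edgeR adjusted p = 0.0453). Its liver HF libraries were all at 0, so this fitted value is no bound on the fold.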

How the results depend on the processing

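Of 67 miRNAs followed through the settings, 55 kept the direction of their difference in each setting that gave a value, and none of the 67 was called in eWAT in any. For 28 of them 1 setting gave no value, since the authors' log2 table does not list them. The count of 0 called in eWAT held in each setting run except the fit without a filter on low counts, which called 2 of 1222. That unfiltered fit had 211 of the 1222 at an unadjusted edgeR p below 0.05. Fits without 1 library called 0 throughout, with 23 to 35 miRNAs at an unadjusted edgeR p below 0.05, and the fit without HF 2 and HF 6, chosen after seeing the data, called 0 of 619. The replicate block called 0, with 24 at an unadjusted edgeR p below 0.05. Same-numbered libraries deviated together for HF 6 and HFLF 6 (r = 0.32) and between -0.17 and 0.07 for the other numbers.

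Scaled by library size alone, let-7f-5p gave -0.026 and miR-26a-5p -0.0055, on the authors' log2 values let-7f-5p gave -0.0037, and with upper quartile factors let-7g-5p gave 0.00504. Without HF 2 and HF 6, let-7c-5p gave 0.024, let-7g-5p 0.014, miR-21a-5p 0.026, miR-34c-5p 0.29 and miR-532-5p 0.036. Leaving out 1 library at a time, the range was -0.13 to 0.0021 for let-7c-5p, -0.055 to 0.065 for let-7f-5p, -0.069 to 0.022 for let-7g-5p, -0.078 to 0.011 for miR-21a-5p and -0.027 to 0.078 for miR-26a-5p. It was -0.51 to 0.083 for miR-130b-3p, -0.72 to 0.035 for miR-133a-3p, -2.61 to 0.73 for miR-196a-5p, -0.43 to 0.22 for miR-1a-3p, -0.38 to 0.015 for miR-222-5p and -0.13 to 0.040 for miR-532-5p. The cause was not tested.

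For the tissue difference RLE factors called 0, the replicate block 0, DESeq2 2, and fits without 1 library 0 to 2. The log2 tissue difference of miR-409-5p was then -6.64 with RLE factors, -6.50 with the block and -7.10 to -6.35 without 1 library, and the log2 tissue difference of miR-376c-3p was -4.12 (edgeR adjusted p = 0.18), -4.07 with DESeq2, and -7.63 without liver HF replicate 1 (edgeR adjusted p = 0.0029), where it was called. Of 262 miRNAs under 10 CPM, 9 had a 95% interval within 1.5-fold, and the part of depth in this was not tested.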

Other observations

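Both miRNAs called only without the filter on low counts were seen mainly in the HF libraries that led the germ cell and epididymis list. miR-878-5p had 12 counts in HF 1, 28 in HF 2 and 80 in HF 6 and none in the other 9 libraries (edgeR adjusted p = 0.000687). miR-7214-5p had 6 counts in HF 1, 20 in HF 2, 14 in HF 5 and 110 in HF 6, 5 in HFLF 6 and none elsewhere (edgeR adjusted p = 0.00698).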
